A study of Mus musculus with 30 samples.

Results

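The 89 genes described here had higher mRNA levels in mouse embryonic stem cells (ESCs) 3 h after a switch from glucose to galactose, and again at 9 h and at 24 h. They were chosen from the time course itself. Counts per gene were expressed as a share of the library's column sum, scaled to CPM, the mean was taken over the 3 libraries of each time, and log2(mean CPM + 0.5) was compared with the Serum/LIF control. A gene entered when its largest mean was at least 1 CPM and its difference was at least 0.8 at each of the 3 times. Of 52630 genes in the table, 13646 reached 1 CPM and 94 passed, which is 0.689% of them, and 5 genes named in the rule were left out. Members and levels were followed into cells grown for 10 (P10) and 20 (P20) passages, which the rule did not use. Tests were run only in those.

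All samples came from E14tg2a, a mouse ESC line in wide use, with no genetic change given in the labels. The time course had 12 libraries: 3 of Serum/LIF control cells, labelled 0 h, and 3 each of cells kept in EMM for 3 h, for 9 h and for 24 h. The protocol text gives the control cells a 24 h culture in Serum/LIF, so the control is called Serum/LIF here. The passage experiment had 18 libraries, 3 for each of Serum/LIF, EMM and 2i/LIF at P10 and at P20. Serum/LIF is the standard medium with fetal serum, glucose, pyruvate and leukemia inhibitory factor (LIF). EMM (enhanced metabolic medium) is the same medium with D-galactose in place of glucose and pyruvate, so that both changes were made together. 2i/LIF holds LIF and inhibitors of GSK3 and MEK. LIF was thus present in all groups, and one cell line stood for mouse ESCs throughout.

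Galactose reaches glycolysis through the Leloir pathway, a slow route, and cells fed on it rely more on mitochondrial respiration for ATP. Cells commonly answer a change of fuel through nutrient sensors: TFEB, a transcription factor held in the cytoplasm when mTORC1 is active at the lysosome, turns on lysosomal genes, and PFKFB3 sets the level of fructose 2,6-bisphosphate, an activator of glycolysis. Metallothioneins bind zinc and copper and are transcribed through metal response elements. AP-1, a dimer of Fos and Jun proteins, acts downstream of ERK and of stress kinases. Serum growth factors activate ERK, and the MEK inhibitor of 2i/LIF blocks its activation.

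Promoters of 7 members are shown because these motifs can be read in them. They were picked after the values were seen. A RefSeq promoter (GRCm38.p6, 250 bases before to 50 after the annotated start) was found for 74 of the 89 members, 114 promoters in all. Capitals mark the metal response element (TGCGCNC or TGCACNC, either strand) in the promoters of Mt1 at chr8:94178839-94179138 and Mt2 at chr8:94172368-94172667, both on the + strand. They mark the AP-1 site (TGANTCA) in those of F3 at chr3:121723287-121723586 (+), Plaur at chr7:24462233-24462532 (+) and Prss23 at chr7:89518155-89518454 (-). They mark the E-box CACGTG, the core that TFEB and other basic helix-loop-helix factors recognize, in those of Dpp7 at chr2:25356283-25356582 (-) and Pfkfb3 at chr2:11502041-11502340 (-). The windows shown for Prss23 and Pfkfb3 belong to internal starts, inside the span that GENCODE gives the gene.
Mt1: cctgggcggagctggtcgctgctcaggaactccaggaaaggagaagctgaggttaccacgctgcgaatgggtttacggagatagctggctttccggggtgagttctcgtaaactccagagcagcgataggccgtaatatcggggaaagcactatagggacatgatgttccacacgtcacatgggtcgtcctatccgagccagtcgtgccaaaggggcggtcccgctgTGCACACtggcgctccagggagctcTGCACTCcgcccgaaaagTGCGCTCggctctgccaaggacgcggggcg
Mt2: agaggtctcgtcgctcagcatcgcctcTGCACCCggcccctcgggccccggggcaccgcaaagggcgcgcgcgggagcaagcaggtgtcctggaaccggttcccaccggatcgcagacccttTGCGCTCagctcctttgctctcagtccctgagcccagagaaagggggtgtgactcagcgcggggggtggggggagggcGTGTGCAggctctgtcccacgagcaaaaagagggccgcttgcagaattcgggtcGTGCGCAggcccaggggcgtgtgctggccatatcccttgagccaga
F3: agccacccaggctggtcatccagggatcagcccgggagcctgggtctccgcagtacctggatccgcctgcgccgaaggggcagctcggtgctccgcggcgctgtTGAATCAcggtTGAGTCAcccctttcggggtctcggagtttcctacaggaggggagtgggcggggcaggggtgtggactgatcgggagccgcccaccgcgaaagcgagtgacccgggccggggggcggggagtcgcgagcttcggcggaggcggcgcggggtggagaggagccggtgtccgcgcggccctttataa
Plaur: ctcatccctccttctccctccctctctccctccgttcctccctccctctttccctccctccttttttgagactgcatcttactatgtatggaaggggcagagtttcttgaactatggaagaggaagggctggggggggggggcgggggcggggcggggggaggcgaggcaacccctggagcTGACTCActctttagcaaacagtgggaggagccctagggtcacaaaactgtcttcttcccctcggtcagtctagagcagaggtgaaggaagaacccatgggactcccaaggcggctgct
Prss23: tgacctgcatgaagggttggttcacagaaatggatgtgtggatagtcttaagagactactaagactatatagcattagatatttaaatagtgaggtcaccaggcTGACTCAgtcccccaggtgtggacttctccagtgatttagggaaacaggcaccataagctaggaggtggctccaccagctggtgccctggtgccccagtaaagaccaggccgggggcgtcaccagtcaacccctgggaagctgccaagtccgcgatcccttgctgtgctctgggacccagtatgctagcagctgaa
Dpp7: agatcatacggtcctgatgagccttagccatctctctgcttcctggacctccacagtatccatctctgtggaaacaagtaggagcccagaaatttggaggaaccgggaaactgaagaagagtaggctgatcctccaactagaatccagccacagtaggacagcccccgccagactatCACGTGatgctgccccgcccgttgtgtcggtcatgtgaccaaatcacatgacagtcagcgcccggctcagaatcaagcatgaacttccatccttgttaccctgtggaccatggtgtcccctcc
Pfkfb3: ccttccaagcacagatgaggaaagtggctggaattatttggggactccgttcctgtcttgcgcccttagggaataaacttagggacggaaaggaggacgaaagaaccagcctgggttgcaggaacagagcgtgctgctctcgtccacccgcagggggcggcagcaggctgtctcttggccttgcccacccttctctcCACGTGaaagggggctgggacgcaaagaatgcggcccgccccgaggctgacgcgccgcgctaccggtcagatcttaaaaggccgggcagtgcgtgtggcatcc

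The metal response element occurred 3 times in the window of Mt1 and 4 times in that of Mt2. The AP-1 site as searched, TGANTCA with any middle base, occurred 2 times in the window of F3, as TGAATCA and TGAGTCA. It occurred 1 time each in those of Plaur and Prss23. Over all members, TGANTCA was found in 11.4% of the 114 promoters, against 4.76% of the 13143 promoters of genes at 1 CPM or more and 7.81% of all 32851. The 10 members with it were F3, Mme, Mt2, Plaur, Prlr, Prss23, Serpinb8, Sgms2, Tinagl1 and Xaf1. CACGTG was in 12.3% of the members' promoters, against 10.1% and 7.15%, and CCCCACCC, the CACC box that KLF factors recognize, in 18.4% against 12.9% and 9.99%. The ETS core CCGGAAGT stood in 1 promoter (0.877%, against 7.79% and 3.89%) and CCAAT in 23.7% (against 38.0% and 37.4%). TGCGCNC was no more frequent among the members (24.6%) than among expressed genes (27.1%). The CLEAR form of the TFEB site, searched by name, was in none, but it was rare everywhere (0.662% and 0.326%). Median GC content was 61.5% for the members' promoters and 61.0% for those of expressed genes. Other motifs were searched as well. Among them the hypoxia response element NACGTGC was in 12.3% (against 8.23% and 5.91%) and TATAAA in 10.5% (against 6.95% and 13.6%). CTTTGAT (TCF/LEF) was in 4.39% (against 2.38% and 3.73%) and the cAMP response element TGACGTCA in 0.877% (against 3.10% and 1.79%). These shares are descriptions from a search of many motifs, none was tested, and some members have several promoters.

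**Figure D1:**
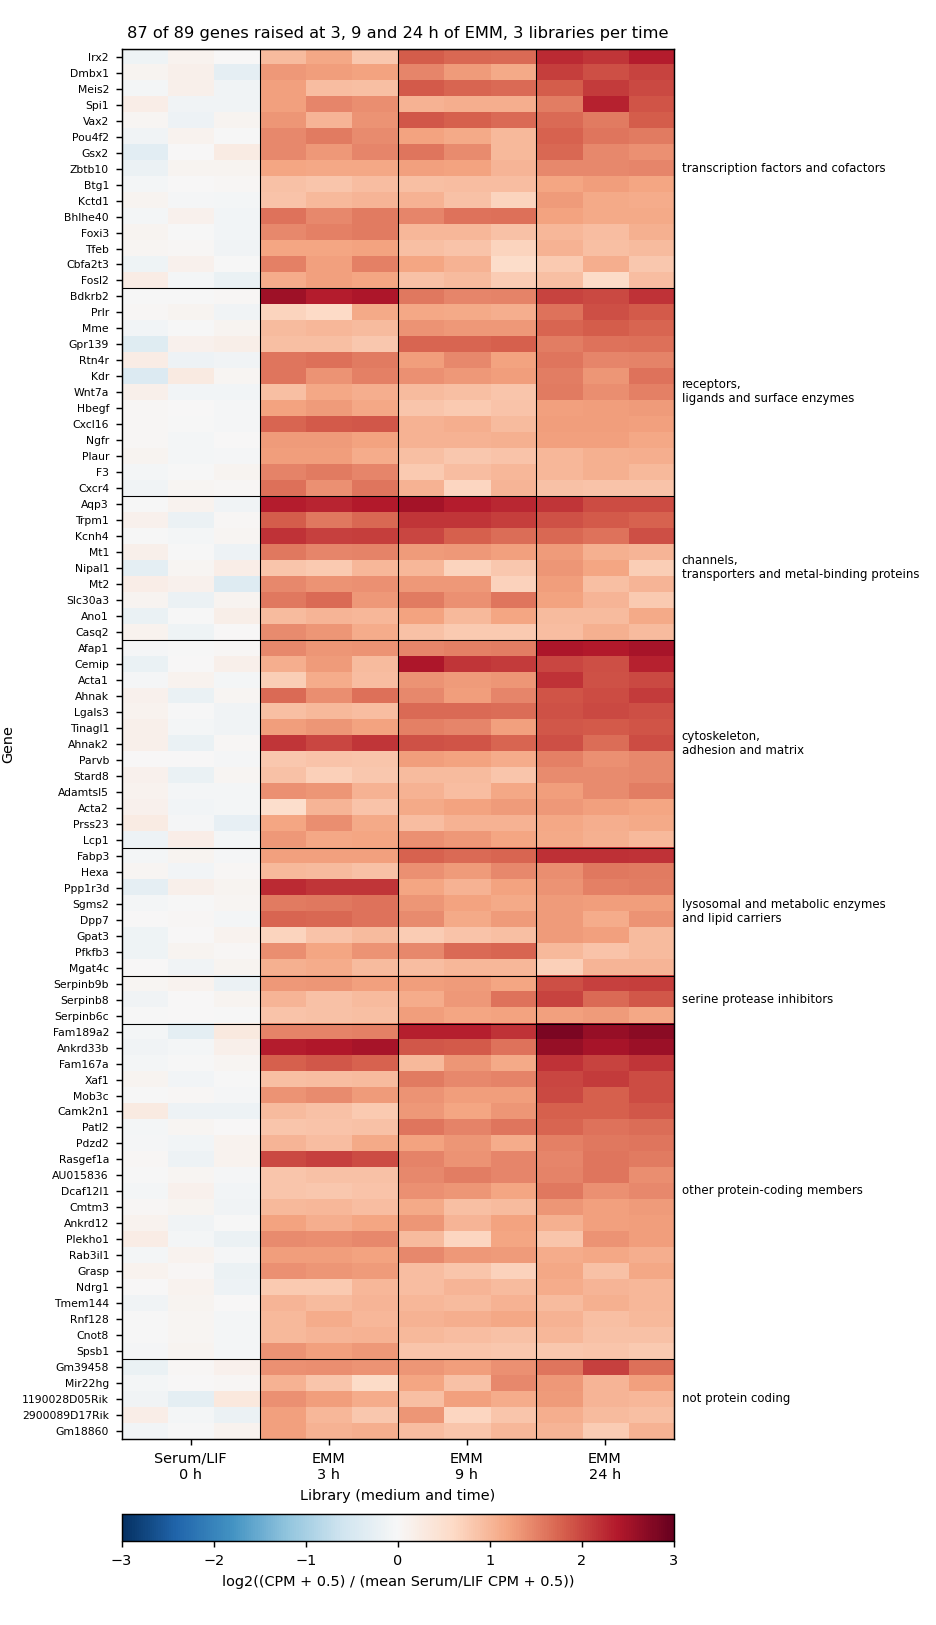
Change of 87 of the 89 genes in every time-course library, as log2((CPM + 0.5) / (mean Serum/LIF CPM + 0.5)), genes in rows grouped by role and libraries in columns (3 each of Serum/LIF, 3 h, 9 h and 24 h). All 9 EMM libraries are red for every gene shown, which a rule on the mean of each time favors, while the strongest color lies at 3 h for some genes and at 24 h for others.

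The rule fixed that every member rose, so the levels and their order in time are given as a description, without a test. In all 89 members the lowest of the 9 EMM libraries was above the highest of the 3 Serum/LIF libraries. The rule chose on these same libraries and so favors this separation, whose share over all genes was not counted. The median rise was 1.24 on the log2 scale at 3 h, 1.21 at 9 h and 1.41 at 24 h. The largest of the 3 means fell at 3 h in 31 members, at 9 h in 13 and at 24 h in 45. Between 3 h and 24 h, 36 members dipped at 9 h, 28 rose at each step and 12 fell at each step. At the threshold of 0.8, Stard8 (smallest rise 0.80), Acta2 (0.81) and Fosl2 (0.81) were just inside, and Slc51a (0.80), Gm45847 (0.79) and Grik3 (0.79) just outside. Of the 13646 genes, 215 rose by at least 0.8 at 3 h, 282 at 9 h and 522 at 24 h, so most genes raised at 24 h were not yet raised at 3 h.

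Members covered a wide range of read depth. The mean CPM over the 4 groups was under 5 in 25 members, from 5 to 50 in 39 and at least 50 in 25. CPM is not divided by length, so these are depths behind the values and not an order of mRNA abundance. By the GENCODE annotation 84 members code for protein, and 5 do not (Gm39458, 1190028D05Rik, 2900089D17Rik, the pseudogene Gm18860 and Mir22hg). Exons of 6 members overlap those of another expressed gene. Fabp3 (with Zcchc17), Bhlhe40 (0610040F04Rik), Mt2 (Gm45774), Cxcl16 (Zmynd15) and 2900089D17Rik (Bri3) do so on the opposite strand, and Mir22hg (Tlcd2) on the same, so their values may hold reads of the partner. Mt2 and Mt1 lie 5514 bases apart on chromosome 8, the closest pair among the members.

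The largest smallest rise was that of Aqp3, which encodes an aquaglyceroporin that passes water and glycerol. Its libraries held 30.2, 33.1 and 28.4 CPM in Serum/LIF, 157, 152 and 162 at 3 h, 176, 158 and 149 at 9 h and 136, 119 and 120.3 at 24 h. The 9 EMM values lay between 119 and 176, all above the controls, and the 24 h libraries were lower than those of 3 h and 9 h. Ankrd33b had 14.6, 15.2 and 17.6 CPM in Serum/LIF, 82.8, 85.3 and 90.4 at 3 h, 58.4, 57.8 and 50.2 at 9 h and 98.8, 89.8 and 95.8 at 24 h, a dip at 9 h and a return. The other members with the largest smallest rise were Ahnak2 (rises of 2.10, 1.85 and 1.86 at 3, 9 and 24 h), Kcnh4, a voltage-gated potassium channel (2.10, 1.83 and 1.76), Trpm1, a cation channel of retina and melanocytes (1.71, 2.12 and 1.84), Bdkrb2, the bradykinin B2 receptor (2.44, 1.51 and 2.05), Fam189a2 (1.50, 2.27 and 2.72) and Rasgef1a, a Ras-family exchange factor (1.99, 1.44 and 1.54).

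Some members act in the lysosome or in fuel use. Hexa, the alpha subunit of the lysosomal hexosaminidase, had 70.0, 64.1 and 69.1 CPM in Serum/LIF, 134, 131 and 125 at 3 h, 177, 166 and 186 at 9 h and 179.6, 205 and 201 at 24 h, with a mean that rose at each step. Dpp7, a dipeptidyl peptidase of vesicles and lysosomes, had 44.2, 45.4 and 42.2 CPM in Serum/LIF, 149.6, 146 and 136 at 3 h, 119, 97.1 and 107 at 9 h and 108, 95.2 and 113 at 24 h, highest at 3 h, and its promoter holds the E-box shown above. Tfeb itself had 61.5, 60.9 and 54.6 CPM in Serum/LIF, 135, 135 and 137 at 3 h, 111, 107 and 94.7 at 9 h and 122, 110.2 and 115 at 24 h. All 3 genes were above their controls in each EMM library, as all members were, with Tfeb lying lower at 9 h than at 3 h.

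Pfkfb3 had 24.2, 28.3 and 27.4 CPM in Serum/LIF, 71.1, 61.2 and 69.1 at 3 h, 73, 87.3 and 90.0 at 9 h and 53, 48.9 and 51.9 at 24 h, highest at 9 h. Fabp3, a carrier of fatty acids in muscle and heart, had 26.6, 29.4 and 26.9 CPM in Serum/LIF, 65.2, 65.7 and 65.8 at 3 h, 95.8, 90.9 and 94.2 at 9 h and 128, 128 and 126 at 24 h, rising at each step with almost no spread among replicates. Ppp1r3d, which targets protein phosphatase 1 to glycogen, had a low level of 0.748, 1.16 and 1.08 CPM in Serum/LIF, 6.6, 6.12 and 6.15 at 3 h, 2.89, 2.58 and 2.93 at 9 h and 3.3, 3.8 and 3.85 at 24 h. Its 3 h values were the highest, and the 9 h and 24 h values stayed above the controls.

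The metallothioneins Mt1 and Mt2, which carry the metal response elements shown above, rose early and then eased. Mt1 had 162, 144 and 131 CPM in Serum/LIF, 439.6, 403 and 412 at 3 h, 351, 358 and 341 at 9 h and 355, 306 and 295 at 24 h. Mt2 had 37.9, 36.6 and 25.1 CPM in Serum/LIF, 90.7, 85.6 and 87.3 at 3 h, 82.6, 82.2 and 53.7 at 9 h and 80.1, 61.9 and 67.6 at 24 h. In both, the 3 h libraries were the highest and the 24 h libraries remained well above Serum/LIF. Slc30a3, a zinc transporter of vesicles, had rises of 1.54, 1.51 and 1.02.

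**Figure D2:**
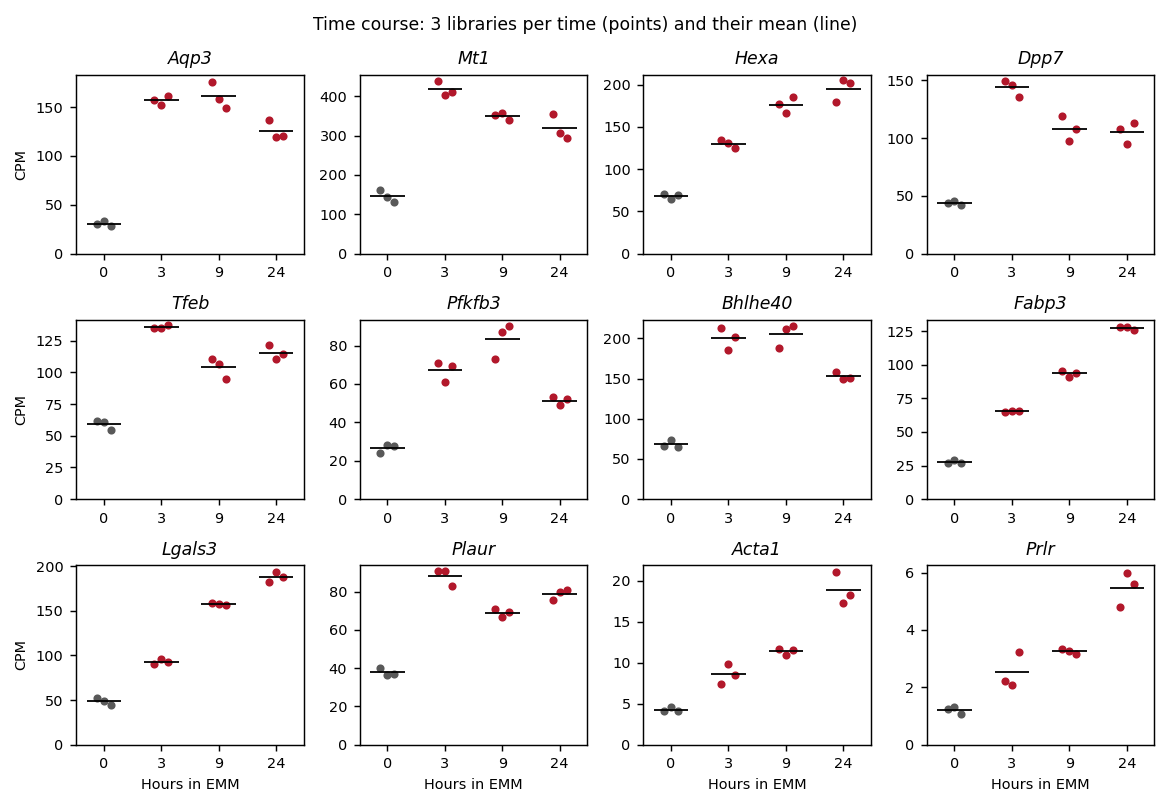
CPM of 12 members in the time course against hours in EMM, with each library as a point (grey Serum/LIF, red EMM) and the mean of 3 as a line, on axes that start at 0. Aqp3 and Mt1 are high from 3 h on, Hexa, Fabp3 and Lgals3 climb at each step, and Pfkfb3 and Bhlhe40 are lower at 24 h than at 9 h.

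Of the 14 members of adhesion, cytoskeleton and matrix, 9 were highest at 24 h, as were 45 of all 89 members. Parvb, beta-parvin of focal adhesions, had 156, 157 and 150.1 CPM in Serum/LIF, 272, 280.0 and 276 at 3 h, 369, 358 and 335 at 9 h and 439, 399 and 418 at 24 h. Lgals3, galectin-3, a lectin that binds beta-galactosides, had 52.2, 48.4 and 44.8 CPM in Serum/LIF, 90.5, 96.1 and 92.2 at 3 h, 159, 158 and 157 at 9 h and 183, 194 and 188 at 24 h. Ahnak, a giant scaffold protein, had 88.7, 69.8 and 84.1 CPM in Serum/LIF, 264, 213 and 254 at 3 h, 220.0, 193 and 225 at 9 h and 299, 318 and 348 at 24 h. Parvb and Lgals3 climbed at each step, and Ahnak dipped at 9 h before its highest level at 24 h. Acta1, skeletal muscle alpha-actin, had 4.11, 4.6 and 4.06 CPM in Serum/LIF, 7.45, 9.84 and 8.5 at 3 h, 11.7, 11 and 11.5 at 9 h and 21, 17.3 and 18.2 at 24 h, and Acta2, smooth muscle alpha-actin, had 9.76, 8.39 and 8.62 CPM in Serum/LIF, 13, 18.5 and 16.5 at 3 h, 20.2, 21.2 and 22.4 at 9 h and 22.9, 21.5 and 20.9 at 24 h. Afap1, an actin filament binding protein, rose by 1.38, 1.50 and 2.43.

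Of the 13 receptors, ligands and surface enzymes, 7 were highest at 3 h and 5 at 24 h, beside 31 and 45 of all 89 members. Time of the highest mean was not tested between roles. Plaur, the urokinase receptor, had 40.2, 36.6 and 36.9 CPM in Serum/LIF, 90.8, 91.1 and 82.9 at 3 h, 70.8, 67 and 69.2 at 9 h and 75.5, 80.0 and 80.7 at 24 h. F3, tissue factor, the starter of coagulation, had 13.6, 14 and 15.1 CPM in Serum/LIF, 41, 43 and 39.9 at 3 h, 24.7, 27.3 and 28.7 at 9 h and 28.9, 30.3 and 28.5 at 24 h. Both were highest at 3 h. Of the 10 members with the AP-1 site, 5 were highest at 3 h and 5 at 24 h. Hbegf, a heparin-binding ligand of the EGF receptor, had 39.8, 39.2 and 38.3 CPM in Serum/LIF, 90.5, 95.3 and 87.7 at 3 h, 69.5, 68.1 and 71 at 9 h and 93.2, 94.3 and 95.1 at 24 h. Cxcl16, a chemokine, rose by 1.82, 1.03 and 1.25, and Cxcr4, a chemokine receptor, by 1.54, 0.92 and 0.86. Mme, the peptidase neprilysin, had 89.5, 94.4 and 99.5 CPM in Serum/LIF, 182, 188 and 182 at 3 h, 241, 233 and 234 at 9 h and 317, 334 and 319.5 at 24 h, highest at 24 h, and Prlr, the prolactin receptor, rose by 0.82, 1.13 and 1.80.

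Transcription factors and cofactors numbered 16, and 7 of them are homeobox genes that are known from later development (such as Dmbx1, Gsx2, Irx2, Meis2, Pou4f2 and Vax2). Irx2 had 2.45, 2.97 and 2.75 CPM in Serum/LIF, 5.72, 6.71 and 5.18 at 3 h, 10.8, 10.0 and 10.0 at 9 h and 14.7, 13.8 and 16 at 24 h, the largest gain between 3 h and 24 h among the members. Bhlhe40, a repressor in the circadian clock, had 65.8, 73.8 and 64.5 CPM in Serum/LIF, 213, 185 and 202 at 3 h, 188, 211 and 215 at 9 h and 159, 149 and 151 at 24 h, lower at 24 h than at 3 h. Fosl2, a Fos-family subunit of AP-1, had 10.1, 8.25 and 7.46 CPM in Serum/LIF, 19.3, 20.8 and 20.1 at 3 h, 16.3, 17 and 15 at 9 h and 16.5, 13.1 and 16.7 at 24 h. Cnot8, a deadenylase of the CCR4-NOT complex, was at 119, 125 and 116 CPM in Serum/LIF, 237, 245 and 247 at 3 h, 236, 229 and 221 at 9 h and 238, 220.0 and 221 at 24 h, and its 9 EMM libraries stayed between 220.0 and 247.

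In the passage experiment every gene was tested with edgeR's quasi-likelihood test over all 18 libraries, with calls made at more than 1 log2 unit in either direction and a Benjamini-Hochberg adjusted p under 0.01, the thresholds of the study. Levels are CPM scaled by TMM, which was computed within this table, so they are not set against the time course. Column sums ran from 6944918 to 27912959 estimated counts, against 24074132 to 35301962 counts in the time course. By the chi-square per degree of freedom between libraries of a group, which grows with depth, replicate 1 of P20 2i/LIF, the shallowest library, stood apart from its group (57.5 and 49.5, against 14.6 between the other two), as did replicate 1 of P10 2i/LIF (20.4 and 29.9, against 6.51). In the time course the same held for replicate 3 of 9 h (10.5 and 11.5, against 2.49) and replicate 1 of 24 h (at most 14.1, against 2.89). The rule gave 91 members without the former and 87 without the latter. In the Serum/LIF control of the time course all pairs were far apart (11.2, 12.3 and 10.1), while pairs at 3 h were at most 2.69. Without control replicate 3 the rule gave 87 members and lost 9 of the 89. All 7 ESC markers (Pou5f1, Sox2, Nanog, Zfp42, Esrrb, Sall4 and Utf1) were above 1 CPM in every group. Genes on chromosomes 6 and 8 were higher in P20 2i/LIF than in P20 Serum/LIF by a median of 0.33 and 0.45 on the log2 scale, and 13 members lie there, Mt1 and Mt2 among them. All 89 members were in the table, and 86 of them passed the filter on low counts and were tested with 16054 genes. Among the 3 that did not were Gsx2 and Ppp1r3d, with no library above 0.775 CPM in Serum/LIF or EMM.

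At P10, 51 of the 86 tested members were higher in EMM than in Serum/LIF, 9 were lower and 26 were not called. The share of the 16054 tested genes was 6.67% for higher and 10.5% for lower. The members' median log2 fold change was 1.35, or 1.30 with the 3 genes at a floor of 3 counts per library set to their bound, against 0.01 for all tested genes. The filter kept members that were high in any group, so the count over the 86 is not one over all 89. At P20, 34 were higher, 6 lower and 46 not called, where 3.44% and 6.19% of all genes were called, and the median was 0.82 against 0.00. Genes raised at 24 h alone in the time course (258 tested) were higher in 43.4% at P10 and 19.0% at P20, against 59.3% and 39.5% of the members. Of the genes lowered at all 3 times (155 tested), 57.4% were lower at P10 and 36.1% at P20. These shares were not tested against each other.

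**Figure D3:**
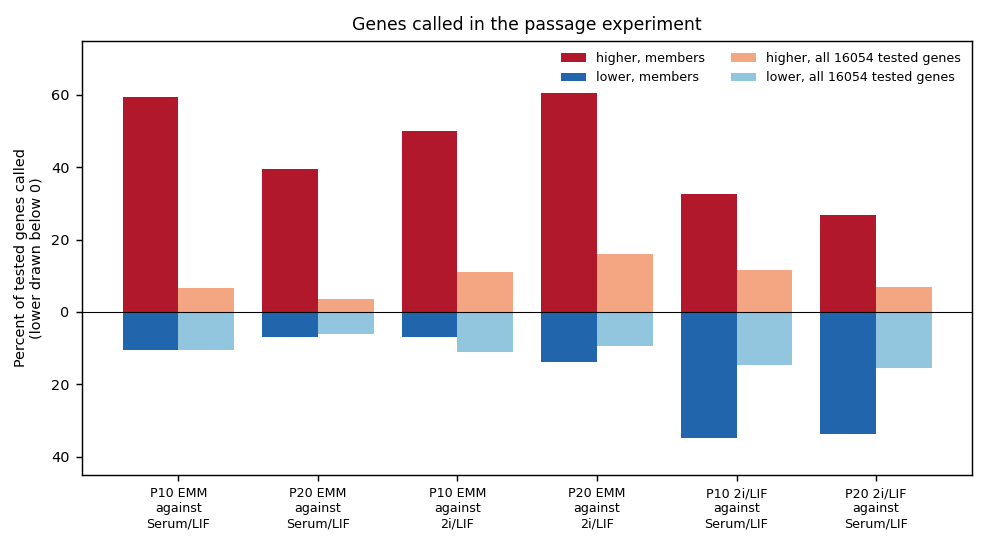
Percent of the 86 tested members (dark) and of all 16054 tested genes (pale) called higher (above 0) or lower (below 0) in 6 comparisons of the passage experiment, from 3 libraries per group. In EMM against Serum/LIF 59.3% of members at P10 and 39.5% at P20 were higher, and in 2i/LIF against Serum/LIF 32.6% were higher and 34.9% lower at P10.

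The comparisons at P10 and P20 share no library but come from one model. The sample titles do not say whether the P20 cultures were the P10 cultures carried on, so the passages may not be independent. Both comparisons called 31 members higher, where 257 of all 16054 genes (1.60%) were, and both called 6 lower, where 563 (3.51%) were. The 31 were Afap1, Ahnak2, Ankrd12, Ankrd33b, Aqp3, Cnot8, Dcaf12l1, Dmbx1, Dpp7, Fabp3, Fam189a2, Gm18860, Gm39458, Gpr139, Hexa, Irx2, Kcnh4, Kctd1, Lgals3, Mgat4c, Mt1, Mt2, Ndrg1, Parvb, Patl2, Pdzd2, Pou4f2, Prlr, Rab3il1, Rasgef1a and Tmem144. At P10 alone 20 were higher (such as Tfeb, Hbegf, Plaur, Mme and Ngfr), 3 were higher at P20 alone (Foxi3, Pfkfb3 and Rtn4r) and 3 were lower at P10 alone (Cxcl16, Gpat3 and Wnt7a). The other 23 were called at neither passage.

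Aqp3 was among the members higher at both. At P10 it had 11, 9.92 and 9.12 CPM in Serum/LIF against 53.6, 58.5 and 51.2 in EMM, a log2 fold change of 2.44 ± 0.12 (SE, adjusted p = 1.71e-11), and at P20 23.6, 23.7 and 28.3 CPM in Serum/LIF against 77.6, 75.7 and 77.7 in EMM, a change of 1.62 ± 0.11 (SE, adjusted p = 4.46e-09). The groups did not overlap, and the Serum/LIF libraries of P20 lay above those of P10. Ankrd33b had 6.37, 4.2 and 4.08 CPM in Serum/LIF against 129, 131 and 127 in EMM at P10, a change of 4.71 ± 0.21 (SE, adjusted p = 8.16e-12), and 8.08, 10.0 and 10.7 CPM in Serum/LIF against 39.8, 43.2 and 41.4 in EMM at P20, a change of 2.11 ± 0.19 (SE, adjusted p = 1.57e-07). Fam189a2 changed by 4.19 ± 0.23 (SE, adjusted p = 1.12e-10) at P10 and 3.12 ± 0.23 (SE, adjusted p = 1.79e-08) at P20, and Mgat4c, an N-acetylglucosaminyltransferase of the Golgi, by 5.08 ± 0.51 (SE, adjusted p = 2.35e-07) and 2.16 ± 0.48 (SE, adjusted p = 0.00174), with the P20 call lost in 1 of 12 alternative fits. Mgat4c had only 2 to 6 counts in the P10 Serum/LIF libraries, so the size of its change there is loosely known. The P10 call of Kcnh4, at 1.11 ± 0.32 (SE, adjusted p = 0.00835), held in 2 of 12, and its change at P20 was 2.80 ± 0.29 (SE, adjusted p = 8.99e-07). Gpr139, a G protein-coupled receptor with 3 to 13 counts in the Serum/LIF libraries, changed by 3.58 and 2.89. Patl2, an RNA-binding protein of oocytes, changed by 2.94 and 2.97, and Cnot8 by 1.20 and 1.41.

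Lysosomal members were higher at P10, and Hexa and Dpp7 also at P20. Hexa had 41.2, 53.1 and 47.8 CPM in Serum/LIF against 182, 188 and 207 in EMM at P10, a change of 2.02 ± 0.14 (SE, adjusted p = 2.07e-09), and 48.7, 46.4 and 36.1 CPM in Serum/LIF against 184, 176 and 193 in EMM at P20, a change of 2.07 ± 0.14 (SE, adjusted p = 4.86e-09). Dpp7 had 17.9, 16.7 and 18 CPM in Serum/LIF against 66.9, 59.6 and 54.3 in EMM at P10, a change of 1.79 ± 0.13 (SE, adjusted p = 4.97e-09), and changed by 1.50 ± 0.13 (SE, adjusted p = 8.23e-08) at P20. Tfeb had 35.7, 34.6 and 26.4 CPM in Serum/LIF against 96.7, 107 and 111 in EMM at P10, a change of 1.70 ± 0.16 (SE, adjusted p = 7.87e-08). At P20 it had 34.9, 33.5 and 36.9 CPM in Serum/LIF against 55.9, 65 and 57.7 in EMM, and its change of 0.77 ± 0.15 (SE, adjusted p = 0.000751) was below the fold threshold although the libraries did not overlap. In a list of 28 lysosome and autophagy genes that includes Hexa and Tfeb, 9 were higher and 1 (Wipi1) lower at P10, and 10 were higher and 0 lower at P20, by the same edgeR test, beside 6.67% (higher) and 10.5% (lower) over all tested genes at P10 and 3.44% and 6.19% at P20. The list's median log2 fold change was 0.69 at P10 and 0.75 at P20, beside 0.01 and 0.00 over all genes. Its genes higher at both passages were Ctsa, Ctsl, Hexa and Fnip2, of which Ctsa and Ctsl encode cathepsins.

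Fabp3 was higher at both passages and Pfkfb3 at P20. Fabp3 had 64.2, 74.9 and 69 CPM in Serum/LIF against 361, 437 and 393 in EMM at P10, a change of 2.52 ± 0.08 (SE, adjusted p = 1.94e-13), and 58.2, 60.9 and 54.5 CPM in Serum/LIF against 201, 205 and 212 in EMM at P20, a change of 1.83 ± 0.08 (SE, adjusted p = 5.97e-11). Pfkfb3, which rose within 3 h, had 32.5, 39.4 and 33 CPM in Serum/LIF against 32.1, 29.2 and 31.9 in EMM at P10, a change of -0.17 ± 0.21 (SE, adjusted p = 0.534), with the EMM libraries just under the lowest Serum/LIF library. At P20 it had 33.5, 38.7 and 36.9 CPM in Serum/LIF against 90.7, 83.1 and 88 in EMM, a change of 1.26 ± 0.21 (SE, adjusted p = 0.000107), and the difference between the passages was 1.43 ± 0.30 (SE, adjusted p = 0.00162). Ndrg1, a gene induced by hypoxia and differentiation, was higher at both, by 1.71 ± 0.23 (SE, adjusted p = 5.62e-06) and 1.15 ± 0.22 (SE, adjusted p = 0.000385), with the P20 call lost in 1 of 13 alternative fits. The list counts that follow are read against the same shares of all genes. In a list of 22 hypoxia targets with Ndrg1 and Pfkfb3, 3 passed as higher and 1 as lower at P10 against 8 and 1 at P20, with medians of 0.19 and 0.62. In a list of 21 tested genes of fatty acid oxidation and PPAR with Fabp3, 6 passed as higher and 2 as lower at P10 against 1 and 1 at P20, so the lower count at P10 and both counts at P20 were near the share of all genes. The other lists with a member gave 2 higher and 5 lower of 16 tested at P10 and 2 and 3 at P20 for cAMP response (Fosl2), 5 lower of 12 at P10 and 3 at P20 for Hippo and YAP targets (F3), 6 lower of 13 at both passages, and Meis2 alone higher at P10, for retinoic acid targets, and 2 higher of 17 at P10 and 1 at P20 for the circadian clock (Bhlhe40).

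Metallothioneins were also higher at both passages. Mt1 had 122, 119 and 104 CPM in Serum/LIF, 287, 336 and 364 in EMM and 403, 289 and 257 in 2i/LIF at P10 and 96.5, 74.7 and 78.3 CPM in Serum/LIF, 215, 234 and 213 in EMM and 485, 364 and 318 in 2i/LIF at P20. Its EMM libraries exceeded Serum/LIF by 1.51 ± 0.16 (SE, adjusted p = 4.32e-07) and 1.41 ± 0.16 (SE, adjusted p = 2.56e-06). EMM and 2i/LIF libraries overlapped at P10, where EMM minus 2i/LIF was 0.06 ± 0.16 (SE, adjusted p = 0.777), and all 2i/LIF libraries were above EMM at P20. Mt2 had changes of 1.16 ± 0.10 (SE, adjusted p = 4.4e-08) and 1.20 ± 0.10 (SE, adjusted p = 8.51e-08) against Serum/LIF. Mt1 and Mt2 lie on chromosome 8, whose genes were shifted up in P20 2i/LIF.

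Among adhesion and matrix genes the members went both ways, with 6 of 14 higher and 4 lower at P10 against 4 and 4 at P20, where all genes gave 6.67% higher and 10.5% lower at P10 and 3.44% and 6.19% at P20. Lgals3 had 26.9, 20.7 and 18.9 CPM in Serum/LIF, 181, 175 and 196 in EMM and 4.33, 3.44 and 3.91 in 2i/LIF at P10 and 32.2, 28.1 and 30.1 CPM in Serum/LIF, 84.2, 82.3 and 82.6 in EMM and 5.72, 7.06 and 7.61 in 2i/LIF at P20. EMM stood highest and 2i/LIF lowest with no overlap, and the change against Serum/LIF fell from 3.05 ± 0.11 (SE, adjusted p = 9.15e-13) to 1.46 ± 0.11 (SE, adjusted p = 1.43e-08). Parvb changed by 2.41 ± 0.11 (SE, adjusted p = 8.16e-12) and 1.16 ± 0.11 (SE, adjusted p = 1.75e-07), Afap1 by 2.59 ± 0.23 (SE, adjusted p = 4.19e-08) and 1.96 ± 0.23 (SE, adjusted p = 2.7e-06), and Ahnak2 by 2.07 ± 0.13 (SE, adjusted p = 4.39e-10) and 2.45 ± 0.13 (SE, adjusted p = 2.3e-10). Ahnak, with 0.91 and 0.48, was not called.

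**Figure D4:**
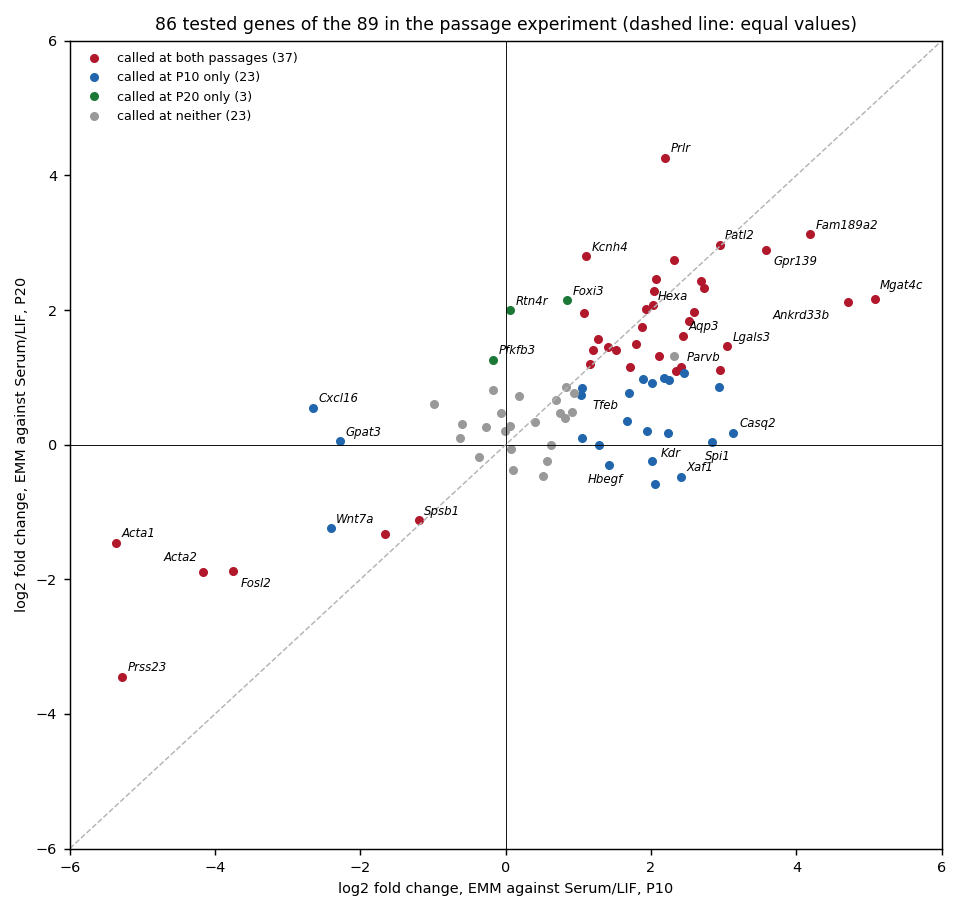
log2 fold change of EMM against Serum/LIF at P10 (x axis) and at P20 (y axis) for the 86 tested members, each a point colored by the passage at which it was called, with a dashed line of equal values. The 37 members called at both lie at the upper right (31) or lower left (6), and Casq2, Xaf1, Spi1 and Hbegf lie right of 0 near or below the horizontal line.

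Of the 86 tested members, 6 that had risen within a day were lower in EMM than in Serum/LIF at both passages, beside 3.51% of all tested genes. Members called lower were 10.5% at P10 and 6.98% at P20, near the 10.5% and 6.19% of all tested genes. Acta1 had 16.5, 16.1 and 10.3 CPM in Serum/LIF against 0.206, 0.3 and 0.734 in EMM at P10, a change of -5.36 ± 0.34 (SE, adjusted p = 5.5e-10), and 11.4, 11.3 and 11.2 CPM in Serum/LIF against 4.23, 3.59 and 4.56 in EMM at P20, a change of -1.46 ± 0.22 (SE, adjusted p = 5.59e-05). Acta2 had 46.1, 32.1 and 38.3 CPM in Serum/LIF against 2.16, 1.8 and 2.64 in EMM at P10, a change of -4.16 ± 0.25 (SE, adjusted p = 2.55e-10), and 50.8, 46.8 and 81.5 CPM in Serum/LIF against 16.3, 16.7 and 15.2 in EMM at P20, a change of -1.89 ± 0.19 (SE, adjusted p = 4.53e-07). Both actins came nearer to Serum/LIF at P20, by 3.90 ± 0.43 (SE, adjusted p = 2.62e-06) and 2.28 ± 0.31 (SE, adjusted p = 3.49e-05).

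Prss23, a secreted serine protease, had 16.4, 13.9 and 15.3 CPM in Serum/LIF against 0.361, 0.699 and 0 in EMM at P10, a change of -5.28 ± 0.37 (SE, adjusted p = 2.34e-09), and changed by -3.45 ± 0.28 (SE, adjusted p = 3.98e-08) at P20. Fosl2 had 22.3, 21.2 and 24.5 CPM in Serum/LIF against 1.96, 1.1 and 1.91 in EMM at P10, a change of -3.75 ± 0.27 (SE, adjusted p = 2.6e-09), and 16, 17.3 and 25.6 CPM in Serum/LIF against 5.48, 5.74 and 4.79 in EMM at P20, a change of -1.87 ± 0.22 (SE, adjusted p = 2.91e-06). Spsb1, a SOCS-box adaptor, changed by -1.20 ± 0.16 (SE, adjusted p = 7.42e-06) and -1.12 ± 0.15 (SE, adjusted p = 1.37e-05). The summed level of 7 markers of fibroblasts or feeder cells (Col1a1, Col1a2, Col3a1, Thy1, Postn, Dcn and Lum, none of them a member) was 143 to 171 CPM in P10 Serum/LIF and 229 to 456 in P20 Serum/LIF, against 18.4 to 23.3 and 9.72 to 12.9 in EMM and 2.89 to 6.32 in 2i/LIF, with Dcn and Lum under 1 CPM in every group. In a longer fibroblast list 6 of 9 tested genes were lower in EMM at each passage, and Thy1 was higher at P10. In the time course the fibroblast sum went from 62.4 to 64.9 in Serum/LIF to 42.7 to 50.6 at 24 h of EMM. Markers of trophectoderm summed to 576 to 670 CPM in P10 Serum/LIF and 54.2 to 65.3 in P10 EMM, and to 324 to 431 and 106 to 111 at P20. In the time course the trophectoderm sum was 192 to 205 in Serum/LIF, 239 to 282 at 3 h, 286 to 304 at 9 h and 320 to 332 at 24 h. That of 7 primitive endoderm markers went from 14.3 to 15.4 in Serum/LIF to 25.4 to 26.3 at 24 h, with Sox17 and Foxa2 under 1 CPM at each time. The primitive endoderm sum was 11.5 to 14.9 in P10 Serum/LIF and lower, at 6.99 to 8.09, in P10 EMM. At P20 it was 14.7 to 20.2 in Serum/LIF and 14.7 to 22.2 in EMM, which overlapped. Markers of the 2-cell state summed to 14.2 to 26.5 CPM in P10 Serum/LIF and 1.10 to 3.96 in P10 EMM, to 37.9 to 83.6 and 2.05 to 4.63 at P20, and to under 1 CPM in every time-course library. Neural progenitor markers summed to 179 to 197 in P10 Serum/LIF and 86.9 to 102 in P10 EMM, to 116 to 129 and 124 to 131 at P20, and in the time course to 128 to 158 in Serum/LIF, 203 to 211 at 3 h and 143 to 159 at 24 h. The ESC markers summed to 3117 to 3398 in P10 Serum/LIF and 4224 to 4792 in P10 EMM, and to 3596 to 3866 and 3374 to 3441 at P20. The part of these markers in the result was not tested, and in bulk samples fewer cells of a type and less RNA per cell cannot be told apart.

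Of the receptors and ligands, 8 of 13 were higher and 2 lower at P10, and 3 were higher at P20, beside 6.67%, 10.5% and 3.44% of all genes. The 2 lower are near the share of all genes. Prlr had 1.36, 1.14 and 1.48 CPM in Serum/LIF against 7.47, 5.89 and 4.4 in EMM at P10, a change of 2.19 ± 0.22 (SE, adjusted p = 2.59e-07), and 1.14, 1.05 and 0.882 CPM in Serum/LIF against 20.8, 19.1 and 20.0 in EMM at P20, a change of 4.26 ± 0.22 (SE, adjusted p = 2.3e-10), the largest of all members at that passage. Hbegf had 20.9, 21.6 and 26.4 CPM in Serum/LIF against 58.4, 62.1 and 64.4 in EMM at P10, a change of 1.43 ± 0.13 (SE, adjusted p = 8.34e-08), and 23.1, 24.1 and 30.5 CPM in Serum/LIF against 20.0, 20.8 and 21.8 in EMM at P20, where its change was -0.31 ± 0.13 (SE, adjusted p = 0.0758). Plaur changed by 1.05 ± 0.16 (SE, adjusted p = 2.38e-05) and 0.09 ± 0.16 (SE, adjusted p = 0.688), a call at P10 that did not hold under every setting. Ngfr, the p75 neurotrophin receptor, changed by 2.25 ± 0.14 (SE, adjusted p = 4.56e-10) and 0.96 ± 0.13 (SE, adjusted p = 2.3e-05), and Mme by 1.88 ± 0.16 (SE, adjusted p = 3.64e-08) and 0.98 ± 0.16 (SE, adjusted p = 0.000115). F3, with -0.06 and 0.48, was called at neither. Cxcl16 had 21.4, 22.1 and 17.2 CPM in Serum/LIF against 3.55, 2.9 and 3.08 in EMM at P10, a change of -2.65 ± 0.24 (SE, adjusted p = 7.06e-08), and 8.68, 7.32 and 6.74 CPM in Serum/LIF against 8.53, 13.2 and 11.3 in EMM at P20, where it was not called.

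Among the transcription factors 9 of 14 tested were higher at P10 and 5 at P20, beside 6.67% and 3.44% of all genes. Fosl2 was the 1 lower at each passage, near the 10.5% and 6.19% of all genes. Pou4f2, known from retinal ganglion cells, changed by 2.95 ± 0.32 (SE, adjusted p = 5.63e-07) and 1.11 ± 0.30 (SE, adjusted p = 0.00654), and the P20 call held in 6 of 12 alternative fits. Irx2 changed by 2.10 ± 0.19 (SE, adjusted p = 4.21e-08) and 1.32 ± 0.18 (SE, adjusted p = 1.45e-05) and Dmbx1 by 2.69 ± 0.26 (SE, adjusted p = 1.1e-07) and 2.44 ± 0.23 (SE, adjusted p = 3.43e-07). Meis2, a cofactor of Hox proteins that responds to retinoic acid, changed by 2.45 ± 0.40 (SE, adjusted p = 6.51e-05) at P10 and 1.07 ± 0.37 (SE, adjusted p = 0.0286) at P20. Spi1 (PU.1), a regulator of myeloid cells, had 0.433, 0.254 and 0.148 CPM in Serum/LIF against 1.39, 1.9 and 3.23 in EMM at P10, a change of 2.83 ± 0.45 (SE, adjusted p = 4.61e-05). Its P10 Serum/LIF libraries held 2 to 7 counts. Bhlhe40, at -0.18 and 0.81, was called at neither passage.

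The change between passages was tested as the difference of the 2 EMM against Serum/LIF contrasts. It was called in 25 members: the difference was larger or less negative at P20 in 9 and smaller or more negative in 16, where 5.06% and 3.34% of all genes were called. Casq2, a calcium-binding protein of muscle, had 0.742, 0.445 and 0.445 CPM in Serum/LIF against 4.27, 5.89 and 4.4 in EMM at P10 and 1.55, 1.56 and 0.882 CPM in Serum/LIF against 1.61, 1.69 and 1.3 in EMM at P20, a difference of -2.95 ± 0.37 (SE, adjusted p = 1.18e-05). Xaf1, an interferon-inducible binder of XIAP, had 6.3, 5.66 and 7.56 CPM in Serum/LIF against 37.2, 34.6 and 31.3 in EMM at P10 and 12.1, 12.2 and 12.8 CPM in Serum/LIF against 8.29, 10.7 and 7.48 in EMM at P20, a difference of -2.89 ± 0.22 (SE, adjusted p = 4.22e-08). At P20 the Casq2 libraries of EMM and Serum/LIF overlapped, and the Xaf1 libraries of EMM were all below those of Serum/LIF. Kdr, the VEGF receptor 2, changed by 2.01 ± 0.36 (SE, adjusted p = 0.000137) at P10 and -0.24 ± 0.36 (SE, adjusted p = 0.64) at P20. Ankrd33b and Lgals3 were higher at both passages with a smaller difference at P20, and Prlr with a larger one.

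**Figure D5:**
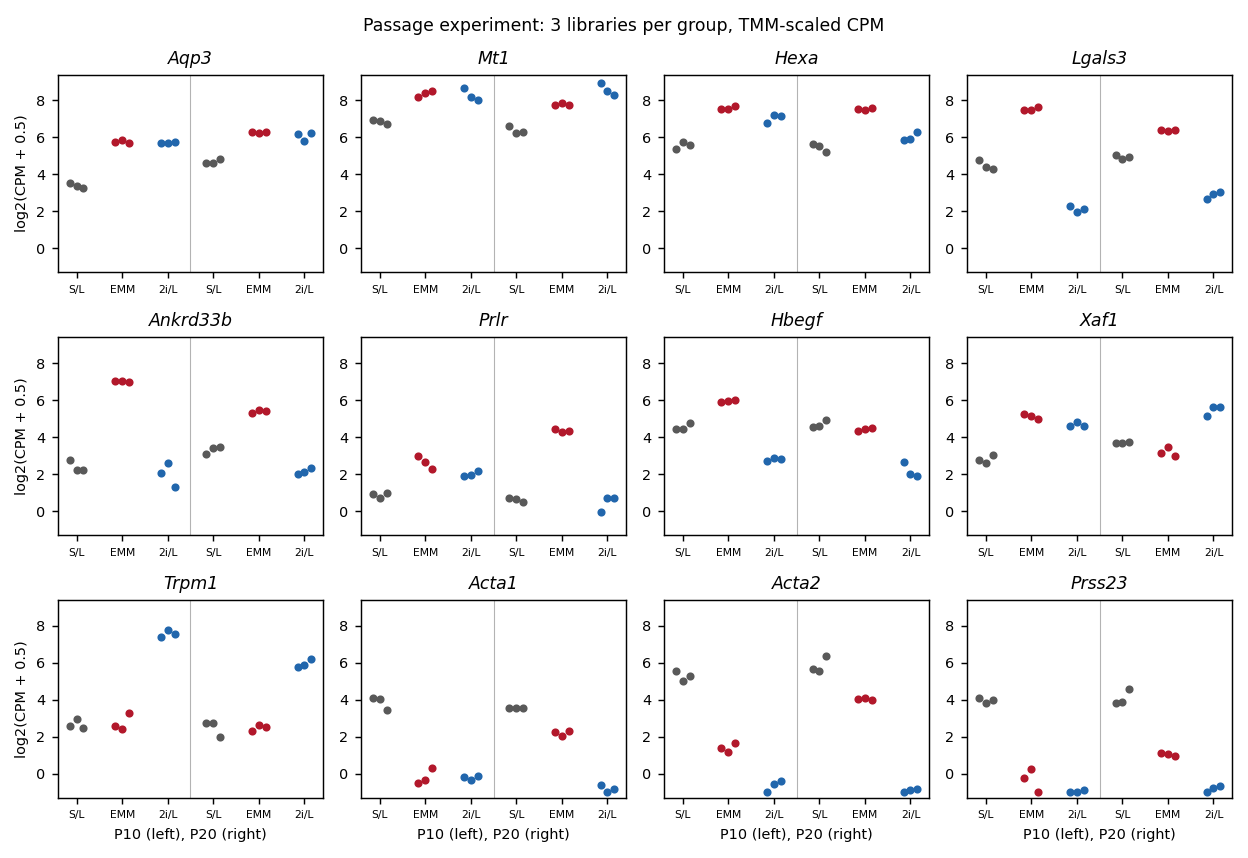
log2(CPM + 0.5) of 12 members in the passage experiment, with each library as a point (grey Serum/LIF, red EMM, blue 2i/LIF), P10 left of the line and P20 right of it. Aqp3, Mt1 and Hexa are higher in EMM than in Serum/LIF at both passages, Hbegf and Xaf1 at P10 alone, Trpm1 is highest in 2i/LIF, and Acta1, Acta2 and Prss23 are highest in Serum/LIF.

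Against 2i/LIF, 43 members were higher in EMM and 6 lower at P10, where 11% and 11% of all genes were, with a median of 1.03, and 41 and 6 without P10 2i/LIF replicate 1. At P20 these were 52 and 12, where 16% and 9.39% were, with a median of 1.49, and 52 and 12 without P20 2i/LIF replicate 1. These comparisons use the same EMM libraries as those against Serum/LIF. EMM had the highest mean of the 3 media in 51 of the 86 members at P10 and in 55 at P20, where it did in 30.4% and 32.7% of all tested genes.

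Some members were at few counts in 2i/LIF. AU015836 had 24.2, 20.1 and 31.1 CPM in Serum/LIF, 24, 25.4 and 31.7 in EMM and 0.503, 0.186 and 0.365 in 2i/LIF at P10, a difference of 6.22 ± 0.28 (SE, adjusted p = 2.71e-12) for EMM against 2i/LIF and 7.07 ± 0.32 (SE, adjusted p = 2.72e-12) at P20. At P10 its EMM and Serum/LIF libraries overlapped. Rnf128, an E3 ubiquitin ligase, differed by 4.70 ± 0.22 (SE, adjusted p = 5.95e-12) and 4.05 ± 0.21 (SE, adjusted p = 1.93e-11) and was not called against Serum/LIF. Both are on the X chromosome. Acta2 at P20 was at or below 3 counts in each 2i/LIF library and so at least 62.0-fold higher in EMM. Gpr139 was likewise at least 14.0-fold higher at P10 and 15.7-fold at P20, and Acta1 at least 15.9-fold at P20. Plaur was higher in EMM by 4.24 ± 0.20 (SE, adjusted p = 5.18e-12) and 2.33 ± 0.19 (SE, adjusted p = 7.31e-09), and F3 by 0.96, which was not called, and 3.01 ± 0.20 (SE, adjusted p = 4.39e-10). Of the 10 members with the AP-1 site, against 2i/LIF 5 passed as higher in EMM at P10 and 5 were not called, and at P20 6 passed as higher, 3 were not called and 1, Xaf1, was lower. These shares are near those of all 86 tested members, of which 43 and 52 were higher, and so single out nothing in the members with the site.

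Other members were highest in 2i/LIF. Trpm1 had 5.5, 7.25 and 5.12 CPM in Serum/LIF, 5.51, 4.89 and 9.4 in EMM and 168, 223 and 192 in 2i/LIF at P10 and 6.19, 6.32 and 3.53 CPM in Serum/LIF, 4.53, 5.63 and 5.35 in EMM and 54.4, 58.4 and 73 in 2i/LIF at P20. EMM and Serum/LIF overlapped at both passages, and the gene was called against Serum/LIF at neither. Meis2 had 0.927, 0.827 and 0.89 CPM in Serum/LIF, 4.84, 6.29 and 3.08 in EMM and 17.2, 16.4 and 34.6 in 2i/LIF at P10, with EMM between the other media, and EMM minus 2i/LIF was -2.25 ± 0.30 (SE, adjusted p = 5.32e-06) and -3.23 ± 0.30 (SE, adjusted p = 4.42e-08). For Irx2 that difference was -1.59 ± 0.15 (SE, adjusted p = 8.62e-08) and -1.98 ± 0.15 (SE, adjusted p = 2.71e-09). It was, for Casq2, -1.19 ± 0.20 (SE, adjusted p = 5.76e-05) and -2.98 ± 0.21 (SE, adjusted p = 9.36e-10), for Nipal1, a magnesium transporter, -1.65 ± 0.45 (SE, adjusted p = 0.00467) and -3.94 ± 0.46 (SE, adjusted p = 7.41e-07), and for Vax2, a homeobox gene of the eye, -4.68 ± 0.48 (SE, adjusted p = 1.19e-07) at P20.

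2i/LIF against Serum/LIF called 28 members higher and 30 lower at P10, where 11.6% and 14.8% of all genes were, and 23 and 29 at P20, where 6.77% and 15.5% were. Without replicate 1 of 2i/LIF these were 27 and 29 at P10 and 22 and 30 at P20. The medians were 0.25 and -0.30. Without the members on chromosomes 6 and 8, 19 were higher and 24 lower at P20. Aqp3 (2.36 ± 0.12, adjusted p = 1.02e-11 at P10 and 1.42 ± 0.11, adjusted p = 4.13e-09 at P20) and Patl2 (2.01 ± 0.14, adjusted p = 7.2e-10 at P10 and 1.13 ± 0.14, adjusted p = 2.58e-06 at P20) were higher in 2i/LIF than in Serum/LIF at both passages, and Lgals3 (-2.51 ± 0.14, adjusted p = 4.27e-11 at P10 and -2.11 ± 0.13, adjusted p = 1.58e-10 at P20) and Hbegf (-1.80 ± 0.15, adjusted p = 1.01e-08 at P10 and -2.73 ± 0.16, adjusted p = 1.37e-10 at P20) were lower at both.

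By role, 9 members are channels, transporters and metal-binding proteins, 8 are lysosomal and metabolic enzymes and lipid carriers, 3 are serine protease inhibitors (Serpinb6c, Serpinb8 and Serpinb9b), 21 are other protein-coding genes and 5 are not protein coding. Of the 21, which include Camk2n1, Cmtm3, Dcaf12l1, Fam167a, Grasp, Mob3c, Pdzd2, Plekho1 and Rab3il1, 14 passed as higher and 1 as lower at P10 against 11 and 1 at P20, beside 6.67% and 10.5% of all genes at P10 and 3.44% and 6.19% at P20. All 3 serpins were highest at 24 h, with a median rise of 1.87, and Serpinb6c and Serpinb9b were higher at P10 alone. Cemip, a hyaluronidase-like protein, Adamtsl5 and Btg1, an antiproliferative cofactor, were higher at P10 alone too, with changes of 1.28, 1.04 and 1.05 that did not hold under every setting. Lcp1, an actin-bundling plastin, Ano1, a chloride channel, and Cbfa2t3, a corepressor, were called at neither passage.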

How the data were processed

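Time-course values are counts per gene that the authors deposited unnormalized, and passage values are estimated counts that the authors deposited per gene and that were rounded to whole numbers here. The submitters' processing notes name STAR, featureCounts and DESeq2 for the time course and STAR, Salmon and DESeq2 for the passages, with mm10. The study's methods name HTSeq. Versions were not given in the sources used here. Groups were taken from the labels. The study's methods describe the RNA-seq replicates of every condition as biological, from independent experiments. EMM columns of the time course carry other replicate numbers than the titles. No column was left without a sample.

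The members were found with pandas 2.3.3. In the passage table edgeR 4.0.16 (R 4.3.3) was run with filterByExpr, TMM scaling, one model over 18 libraries and Benjamini-Hochberg adjustment over 16054 genes, and SEs were derived from the fold change and the F statistic. The procedure was tested on simulated data. Calls needed an adjusted p under 0.01 and more than 1 log2 unit in either direction. Floors of 3 counts and all SEs cover no more than the spread and counting error of these libraries. DESeq2 1.42.0, other scalings, filters and left-out libraries were alternatives. The members and the gene lists were chosen with earlier results of these data known. Named genes were the 8 members with the largest smallest rise, the 6 with the highest mean CPM, those with the largest changes at each passage (6 up and 4 down against Serum/LIF, 4 and 4 against 2i/LIF), the 4 with the largest and the 4 with the smallest difference between 24 h and 3 h, members of a fixed list and the 3 genes nearest to each side of the threshold. Other genes were named after their values were seen. Roles came from general knowledge, coordinates from GENCODE M21 (GRCm38) and promoters from RefSeq (GRCm38.p6). Values of 2 members are not reported here by name, and both stay in the counts and medians.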

Additional observations from a re-analysis of the deposited data

Results flagged for a closer look

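The difference between EMM and Serum/LIF changed from P10 to P20 in 25 members by the edgeR test of the difference itself. Values are the log2 fold change at P20 minus that at P10, with its SE and adjusted p. It was more negative at P20 in 16 members: Casq2 (-2.95 ± 0.37, 1.18e-05), Mgat4c (-2.92 ± 0.77, 0.00939), Xaf1 (-2.89 ± 0.22, 4.22e-08), Spi1 (-2.79 ± 0.65, 0.00387), Ankrd33b (-2.60 ± 0.28, 2.16e-06), Kdr (-2.25 ± 0.51, 0.00315), Mob3c (-2.06 ± 0.24, 5.93e-06), Pou4f2 (-1.84 ± 0.44, 0.00447). The other 8 of these were Serpinb6c (-1.75 ± 0.38, 0.00214), Hbegf (-1.73 ± 0.19, 2.41e-06), Lgals3 (-1.59 ± 0.15, 6.67e-07), Serpinb9b (-1.32 ± 0.27, 0.0013), Ngfr (-1.29 ± 0.19, 7.52e-05), Parvb (-1.26 ± 0.15, 6.38e-06), Kctd1 (-1.25 ± 0.26, 0.00186) and Camk2n1 (-1.09 ± 0.29, 0.00984). It was more positive at P20 in 9 members: Foxi3 (1.30 ± 0.29, 0.00332), Pfkfb3 (1.43 ± 0.30, 0.00162), Kcnh4 (1.69 ± 0.44, 0.00859), Fosl2 (1.87 ± 0.34, 0.000592), Prlr (2.07 ± 0.32, 0.000128), Acta2 (2.28 ± 0.31, 3.49e-05), Gpat3 (2.33 ± 0.43, 0.000684), Cxcl16 (3.19 ± 0.33, 1.31e-06) and Acta1 (3.90 ± 0.43, 2.62e-06). Of these 9, Acta1, Acta2, Fosl2, Cxcl16 and Gpat3 were lower in EMM at P10. Of the 25 calls, 17 were kept in every alternative fit and 8 were lost in at least 1: Camk2n1 in 14 of 18, Kcnh4 and Mgat4c in 12 of 17 each, Pou4f2 in 5, Foxi3 and Spi1 in 4 each and Kdr in 3 of 17, and Kctd1 in 1 of 18. Most of these fits had 1 library left out. No cause was tested.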

How the results depend on the processing

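The number of members was 43 with a threshold of 1 in place of 0.8, 201 with 0.6, and 84 to 92 with 1 time-course library left out. With the 43, the counts shrank with the list: 28 higher and 2 lower at P10 and 18 and 1 at P20 against Serum/LIF, 21 and 2 at P10 and 22 and 7 at P20 against 2i/LIF, 17 higher and 13 lower at P10 and 11 lower at P20 for 2i/LIF against Serum/LIF, and 2 and 7 for the change between passages. A minimum of 10 counts in all libraries left fewer members to test, with 2 lower at each passage against Serum/LIF, 25 (P10) and 29 (P20) higher against 2i/LIF, 11 lower at each passage for 2i/LIF against Serum/LIF, and 2 higher and 10 lower for the change between passages.

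With 1 library left out, 45 to 49 members were higher and 9 to 9 lower at P10, and 32 to 34 and 6 to 6 at P20, against Serum/LIF. Against 2i/LIF these were 39 to 43 and 5 to 6 at P10, and 48 to 52 and 12 to 13 at P20. For 2i/LIF against Serum/LIF they were 26 to 29 and 24 to 29 at P10, and 21 to 23 and 28 to 31 at P20. For the change between passages they were 7 to 9 and 11 to 15. Same-numbered libraries did not deviate together (correlations of deviations from -0.17 to 0.07), so the replicate block stands only here: it gave 49 higher and 9 lower at P10 and 34 and 6 at P20. Library totals alone gave 45 and 9, and 33 and 6, and moved the median of all genes by -0.10 at P10, -0.09 at P20 and -0.12 for P20 2i/LIF against Serum/LIF. The DESeq2 Wald test gave 49 and 9, and 35 and 6. Of 60 members called at P10 against Serum/LIF, 51 kept their call in every fit, and Vax2, Plaur, Cemip, 1190028D05Rik, Gm39458, Adamtsl5, Btg1, Kcnh4 and Ankrd12 lost it in at least 1. Of 40 at P20, 36 kept it, and Pou4f2, Gm39458, Mgat4c and Ndrg1 lost it. None changed sign. Without the members on chromosomes 6 and 8, an alternative chosen after seeing the data, P20 EMM against 2i/LIF gave 45 higher and 11 lower, and without P20 2i/LIF replicate 1 it gave 52 and 12. The depth limits genes near the floor, such as Gm39458.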
